A study of Mus musculus with 10 samples.

Results

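The clustered protocadherins are 58 of the 24411 genes listed for lumbar spinal cord of mice given paclitaxel or vehicle. They were taken by symbol, as all genes named Pcdha, Pcdhb or Pcdhg with a member number, which gave 14 α, 22 β and 22 γ genes. The family itself was chosen with earlier results of these data known. RNA-seq was done on 5 libraries of paclitaxel-treated and 5 libraries of vehicle-treated lumbar cord, here named by group and replicate number. Paclitaxel is a microtubule-stabilising cancer drug that causes a painful peripheral neuropathy, and sensory nerves of the hind limbs end in the lumbar cord. The sources used here give no strain, age, dose, vehicle composition or time after treatment. They also do not say if each library is a different animal, and the spread that p-values measure may be technical.

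Clustered protocadherins are cadherin-like adhesion proteins of the neuronal surface. Single neurons switch on different small sets of them, mostly by random choice of promoters, and a neuron's set labels its surface so that branches of the same cell recognise and avoid each other. The C-type genes at the downstream end of the α and γ clusters are an exception, since many neurons use them without such choice. In the mouse spinal cord the γ cluster is known to be needed for the survival of interneurons and for their synapses. A whole-tissue library averages over many cells, so it gives the summed use of each promoter and not the combination in any cell.

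All 58 genes lie on chromosome 18 of GRCm38 (the assembly that mm10 names), in the order α, β, γ. By RefSeq the Pcdha genes span 36930285 to 37188897, the Pcdhb genes 37264998 to 37521419 and the Pcdhg genes 37661775 to 37841873. Each Pcdha and Pcdhg transcript has 4 exons in GENCODE M21. The first is the gene's own large exon, which codes for the extracellular and transmembrane part, and the others are the constant exons that all members of the cluster splice to. In the Pcdha transcripts 2860 bases are common to the whole cluster, a median of 53.5% of the transcript. In the Pcdhg transcripts the common part is 2116 or 2119 bases (median 44.8%), except for Pcdhgb8, which RefSeq lists as a transcribed pseudogene and which shares 375 bases. The Pcdhb genes have a single exon each and no constant part, although the models of Pcdhb21 and Pcdhb22 share 455 bases.

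This layout sets how well a read can be placed. Of all 100-base windows of a transcript, between 41.6% and 52.3% occurred in no other member for the Pcdha genes, between 50.0% and 85.6% for the Pcdhg genes and between 92.3% and 100% for the Pcdhb genes. The deposited values are estimated counts, in which reads from shared sequence are divided between genes by a model. Values of single Pcdha and Pcdhg genes therefore depend on that division, whereas a division among the summed genes of a cluster leaves their sum as it is, and Pcdhb genes share little.

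The depth was 3676259 to 5432072 counts per paclitaxel library and 4585899 to 7791594 per vehicle library, and CPM here means counts scaled to library size in the usual way. At this depth 3 counts corresponded to 0.385 to 0.819 CPM. The cell-type markers read as spinal cord. Summed over 10 neuron genes the level ran from 11439 to 13319 CPM with paclitaxel and from 12919.6 to 13715 CPM with vehicle, lowest in paclitaxel replicate 3, and 0 of the 10 genes passed the test. That library was also the lowest of all in the summed markers of motor neurons (234 CPM), endothelium (76.4 CPM), oligodendrocytes, microglia and blood. It was not the lowest in those of astrocytes, inhibitory neurons or excitatory neurons. The 5 genes of dorsal root ganglion neurons summed to at most 1.09 CPM, with Mrgprd at 0 in all libraries, the 3 Schwann cell genes to at most 1.52 CPM and the 4 muscle genes to at most 2.39 CPM. Other tissue was not near 0 throughout. The 5 blood genes summed to 62.2 to 276 CPM with paclitaxel and 126 to 227 CPM with vehicle. The 5 genes of meninges and fibroblasts summed to 49.0 to 59.1 CPM with paclitaxel and 44.8 to 68.4 CPM with vehicle. In bulk tissue, fewer cells of a type and less RNA per cell cannot be told apart.

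Most of the family was present in the cord at low to moderate levels, while Pcdha8, Pcdhb1 and Pcdhb4 did not pass the filter on low counts. At least 1 count was seen for 57 or 58 of the 58 genes in each library. Summed over members, the γ cluster was highest, at 536 ± 10.6 CPM with vehicle, followed by the α cluster at 191 ± 10.9 CPM and the β cluster at 128 ± 7.29 CPM (SD, n = 5 each). In every library the order of these sums was γ, α, β. The sums are not divided by length, and Pcdha transcripts are longer than most Pcdhb genes. The order of α and β is therefore one of counts and not of levels per length. Levels of single genes are compared below per length, as CPM per kilobase of transcript averaged over the 10 libraries.

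The highest genes on this scale were C-type genes, although not all C-type genes were high. Pcdhgc3 had the highest level of all 58 genes, at 24.9 ± 1.03 CPM per kilobase (SD, n = 10), followed by Pcdhac2 at 12.8 ± 0.877 and Pcdhgc4 at 9.45 ± 0.741 CPM per kilobase. Pcdhgc4 is the isoform tied to interneuron survival in mice, and Pcdhgc3 to dendrite branching. Pcdhgc5 followed at 4.96 ± 0.684 and Pcdhac1 at 2.27 ± 0.497 CPM per kilobase, both within the range of the other genes of their clusters. Pcdhgc3 alone held 22.2% ± 0.589 of the γ sum with vehicle and 21.1% ± 0.944 with paclitaxel (SD, n = 5 each). Pcdhac2 held 40.01% ± 1.99 of the α sum with vehicle and 39.2% ± 2.38 with paclitaxel (SD, n = 5 each).

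The remaining α genes, Pcdha1 to Pcdha12, had a median of 1.55 CPM per kilobase. Pcdha12, the most downstream of them, was highest at 3.06 ± 0.306 and Pcdha8 lowest at 0.244 ± 0.166 CPM per kilobase (SD, n = 10). Pcdha8 had between 0 and 17.97 estimated counts per library and did not pass the filter on low counts.

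Among the β genes the median was 1.52 CPM per kilobase. Pcdhb9 (3.90 ± 0.495), Pcdhb17 (3.82 ± 0.226) and Pcdhb20 (3.16 ± 0.516 CPM per kilobase, SD, n = 10) were highest, and the first pair did not differ beyond their spread. With the longest annotated transcript as the length, Pcdhb17 came to 2.68 CPM per kilobase and ranked after Pcdhb20. Pcdhb1 was nearly silent, with 0 counts in 6 libraries and 1 count in each of the other 4. Pcdhb1 and Pcdhb4 (0.559 ± 0.162 CPM per kilobase) did not pass the filter on low counts.

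Genes of the γA and γB subfamilies, whose first exons alternate along the cluster, had medians of 3.93 and 2.90 CPM per kilobase. Pcdhgb6 (7.43 ± 0.856), Pcdhga11 (7.14 ± 1.08) and Pcdhga7 (6.50 ± 1.38 CPM per kilobase, SD, n = 10) led them, and these 3 did not differ beyond their spread. Pcdhgb8 (1.38 ± 0.543) and Pcdhga1 (1.43 ± 0.514 CPM per kilobase) were lowest. Across genes, Spearman's rho between order on the chromosome and level per kilobase was 0.44 for the 14 Pcdha, 0.45 for the 22 Pcdhb and 0.43 for the 22 Pcdhg genes. Without the C-type genes it was 0.14 for Pcdha1 to Pcdha12 and 0.17 for the 19 γA and γB genes. These describe genes measured in the same 10 libraries and are not tests.

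**Figure D1:**
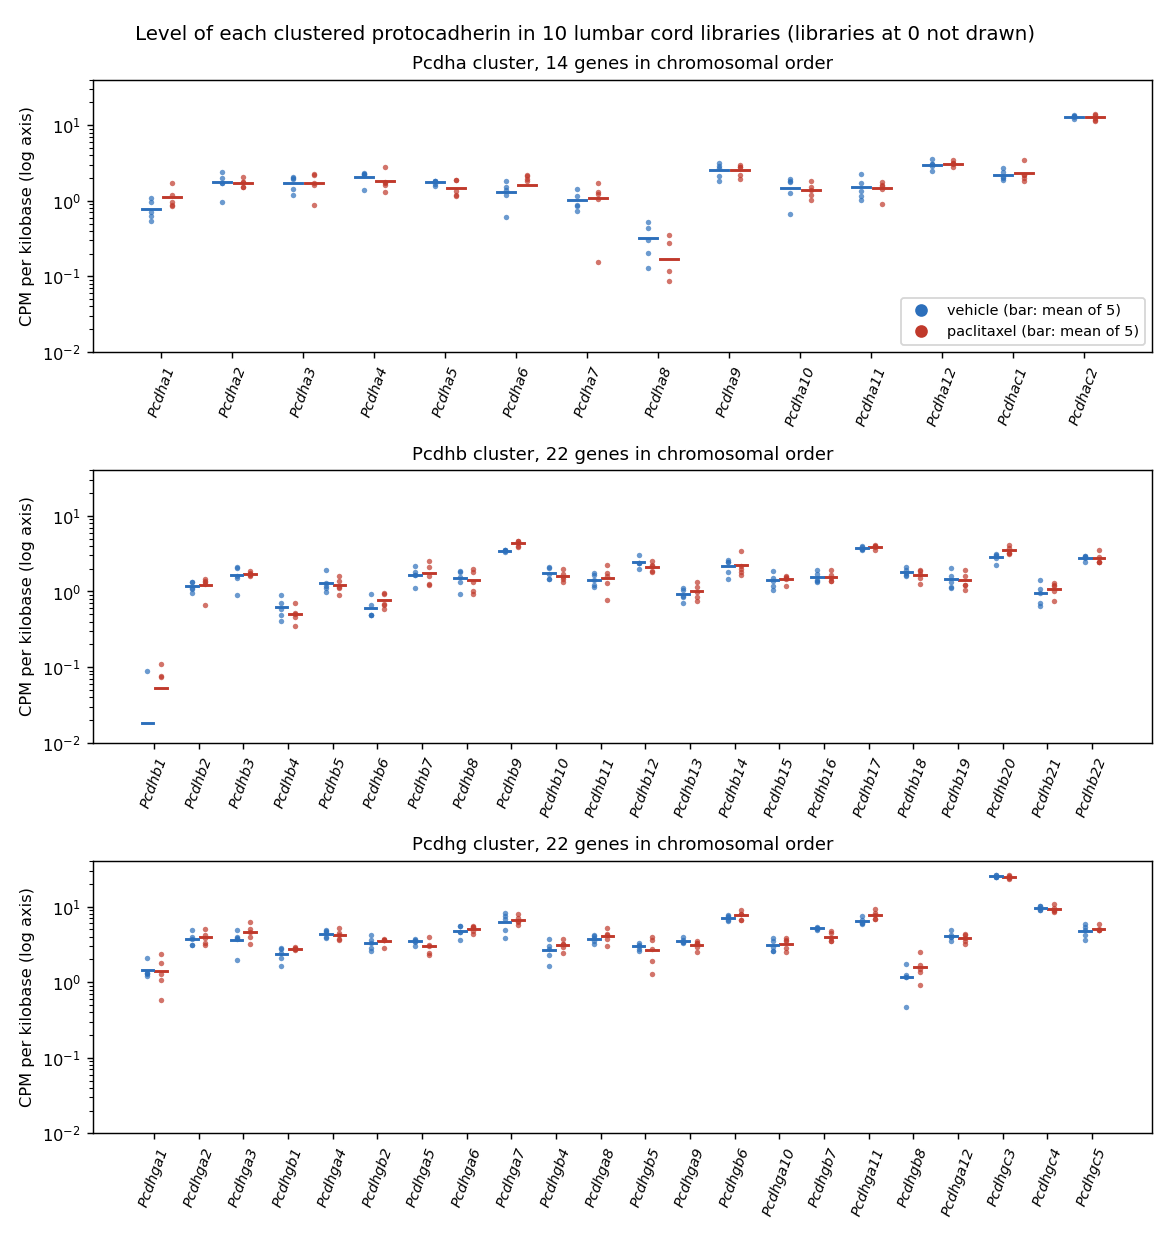
Level of each gene in CPM per kilobase of transcript (log axis), with genes of each cluster in chromosomal order, points for single libraries and bars for the mean of 5 libraries per group. Pcdhgc3, Pcdhac2 and Pcdhgc4 stand above all others at 24.9, 12.8 and 9.45 CPM per kilobase over the 10 libraries, Pcdhb1 is nearly silent, and vehicle and paclitaxel profiles follow each other.

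Relative to Poisson counting, the clusters differed in how their genes varied between libraries of the same group. For a tested Pcdhb gene the variance was a median of 0.905 times that of Poisson counting, so the spread was about the size of counting error. For Pcdhg and Pcdha genes the medians were 2.42 and 2.80 times. The summed counts went the other way. The Pcdhg sum varied 1.34 times as much as counting predicts, less than its typical gene, and the Pcdhb sum 2.89 times, more than its typical gene. The Pcdha sum was at 2.70 times. At equal relative spread this ratio rises with the number of counts, so it is not a like measure for low and high genes, or for genes and sums. The biological coefficient of variation in the edgeR fit is an estimate of relative spread beyond counting. Its medians were 11.4% for Pcdhb, 10.5% for Pcdhg and 15.1% for Pcdha genes. The fit draws each gene's value toward a trend over genes of like level. The median trend value was 13.1% for Pcdhb and 9.74% for Pcdhg genes. Relative to the trend, the median gene was at 0.835 times for Pcdhb, 1.08 times for Pcdhg and 1.27 times for Pcdha. The medians of 11.4% and 10.5% therefore cannot tell whether Pcdhb genes were steadier than Pcdhg genes.

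Expressed within groups, the variance of the Pcdhg sum was 0.593 times the summed variances of its 22 tested genes, and that of the Pcdhb sum 2.61 times those of its 20 tested genes. A ratio of 1 is what genes that vary independently would give, and Pcdha was at 0.936. Among pairs of Pcdhb genes 36.8% were negatively correlated over libraries, against 52.8% of Pcdhg pairs and 47.4% of Pcdha pairs. Paclitaxel replicate 1 was highest in the Pcdhb sum (149 CPM) and vehicle replicate 5, the deepest library, was lowest (117 CPM). Estimated counts need not follow Poisson counting, and the part that the division of shared reads has in these ratios was not tested.

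**Figure D2:**
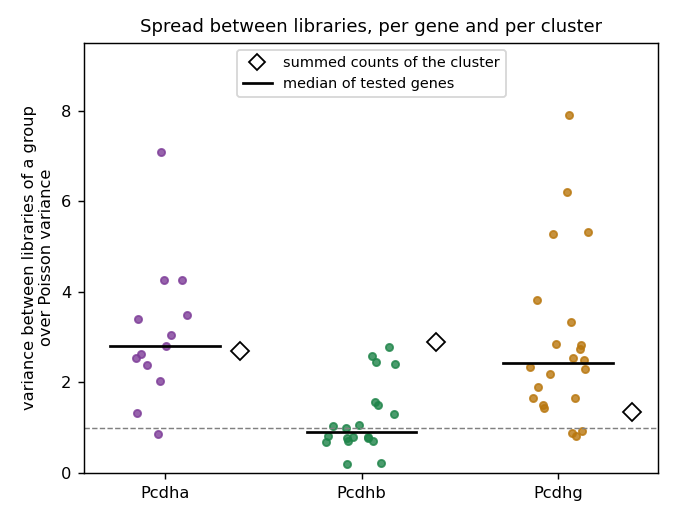
Variance between libraries of the same group over Poisson variance, for each tested gene (points), with the median of each cluster (bar) and the value for the summed counts of the cluster (open diamond). Pcdhb genes sit around the dashed line at 1 (median 0.905) with their sum above them at 2.89, while Pcdhg genes sit higher (median 2.42) with their sum below at 1.34.

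Pcdha6 was listed at 0 in a single library. Its neighbour Pcdha7 is listed with a further row, Pcdha7-g, which has a RefSeq transcript of its own and does not match the naming rule. Pcdha6 was at 11.2, 10.5, 11.7, 0 and 9.73 CPM in paclitaxel replicates 1 to 5 and at 9.94, 6.46, 3.30, 7.38 and 8.07 CPM in the vehicle replicates. In paclitaxel replicate 4, where Pcdha6 is listed at 0, Pcdha7 was lower than in any other library at 0.819 CPM, and Pcdha7-g had its highest value, 10.1 CPM, against at most 3.62 CPM elsewhere. The 3 rows together came to 10.9 CPM there, against 16.5 to 21.7 CPM in the other paclitaxel libraries and 9.24 to 19.7 CPM with vehicle. Pcdhac1 was also highest in that library, at 18.8 CPM, while the Pcdha sum of 186 CPM lay inside the range of the other paclitaxel libraries (182 to 202 CPM). This sum leaves out Pcdha7-g. With that row added it was 196 CPM, again inside the range of the other paclitaxel libraries (183 to 205 CPM). Paclitaxel replicate 4 was the shallowest library, and whether depth has a part in this was not tested.

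**Figure D3:**
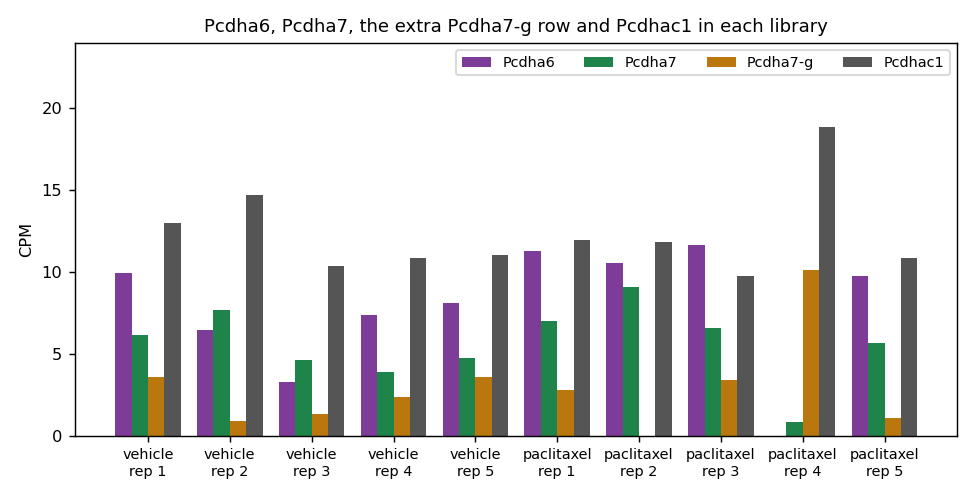
Level in CPM (bars from 0) of Pcdha6, Pcdha7, the extra row Pcdha7-g and Pcdhac1 in each of the 10 libraries. In paclitaxel replicate 4 Pcdha6 is at 0 and Pcdha7 at 0.819 CPM, while Pcdha7-g and Pcdhac1 have their highest values, 10.1 and 18.8 CPM.

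Summed levels of the clusters were nearly the same with paclitaxel and with vehicle. The γ sum was 564.6, 549.5, 528.8, 540.0 and 535.4 CPM in paclitaxel replicates 1 to 5 and 536.9, 542.9, 518.1, 545.1 and 535.5 CPM in vehicle replicates 1 to 5. The groups overlapped, and their means of 544 ± 13.9 and 536 ± 10.6 CPM (SD, n = 5 each) gave a ratio of 1.01. The α sum was 201.8, 187.4, 194.4, 186.1 and 182.4 CPM with paclitaxel and 207.9, 194.3, 189.8, 186.8 and 178.3 CPM with vehicle. Its group means of 190.4 ± 7.71 and 191 ± 10.9 CPM (SD, n = 5 each) gave a ratio of 0.995, on the log2 scale -0.0075, with values from -0.032 without vehicle replicate 5 to 0.029 without vehicle replicate 1 when single libraries were left out. The β sum was 149.3, 130.1, 131.0, 129.6 and 124.8 CPM with paclitaxel and 135.6, 129.3, 125.4, 132.8 and 116.9 CPM with vehicle. Its means of 133 ± 9.45 and 128 ± 7.29 CPM (SD, n = 5 each) gave a ratio of 1.04, on the log2 scale 0.05, which was 0.013 without paclitaxel replicate 1 and 0.024 without vehicle replicate 5. In each cluster the difference between means was smaller than the SD of either group.

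**Figure D4:**
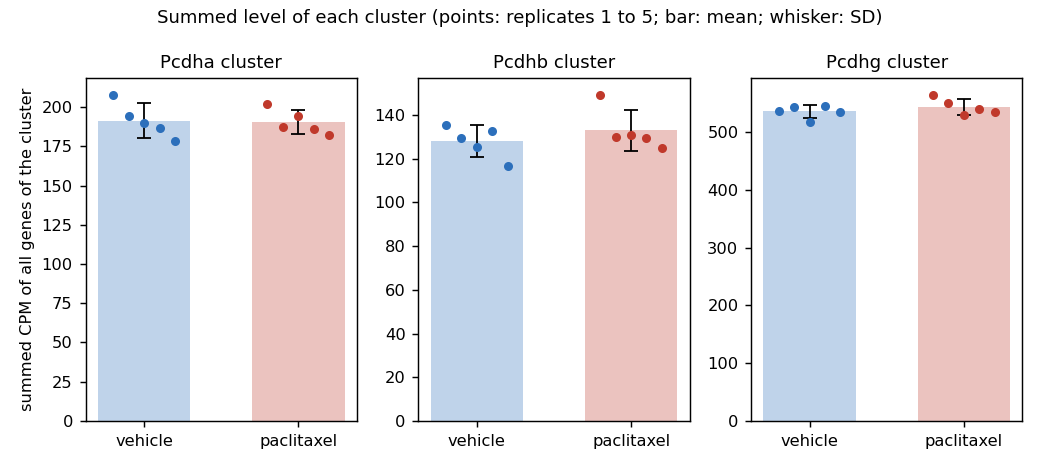
Summed CPM of all genes of each cluster, with points for replicates 1 to 5 of each group, bars for the mean and whiskers for the SD. Vehicle and paclitaxel points overlap in all 3 clusters, with means of 191 and 190.4 CPM (Pcdha), 128 and 133 CPM (Pcdhb) and 536 and 544 CPM (Pcdhg).

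Of the 58 genes, 55 passed the filter on low counts and were tested (13 Pcdha, 20 Pcdhb, 22 Pcdhg). No member changed by the test: 0 of 55 passed an adjusted p of 0.05 (edgeR quasi-likelihood test, smallest adjusted p = 0.792), where the share of all 13287 tested genes was 0%. DESeq2 and limma-voom also called 0 members. At an unadjusted p under 0.05 there were 5 members (9.09%), Pcdha1, Pcdhb9, Pcdhb20, Pcdhga11 and Pcdhgb7, where the share of all tested genes was 6.07%. Of these, 4 were higher with paclitaxel, where 2.94% of all tested genes were, and 1 was lower, where 3.12% were. The number was 3 with DESeq2, after a correction for GC content and length, and without paclitaxel replicate 5. It was 6 without paclitaxel replicate 1, without paclitaxel replicate 2, and with the replicate number as a block.

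Log2 fold changes of the 55 genes ran from -0.37 to 0.50, with 32 above 0 and 23 below, where 49.1% of all tested genes were above and 50.9% below. The medians were -0.0038 for Pcdha, 0.07 for Pcdhb and 0.07 for Pcdhg, beside -0.0027 over all tested genes. Leaving out single libraries moved the Pcdhb median between -0.03 (without vehicle replicate 5) and 0.08, the Pcdhg median between 0.02 (without vehicle replicate 1) and 0.08, and the Pcdha median between -0.06 and 0.08. The Pcdhb median was 0.021 once corrected for GC content and length, and 0.038 in limma-voom. The profile of levels over the 55 genes was alike in the groups, with Spearman's rho of 0.97 across genes, as a description. The precision was enough to limit most members: for 44 of the 55, the 95% interval of the fold change lay within a 1.5-fold change in either direction. The same held for 11515 of all 13287 tested genes. Members were the less precise, with a median SE of 0.166 against 0.100 over all tested genes.

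**Figure D5:**
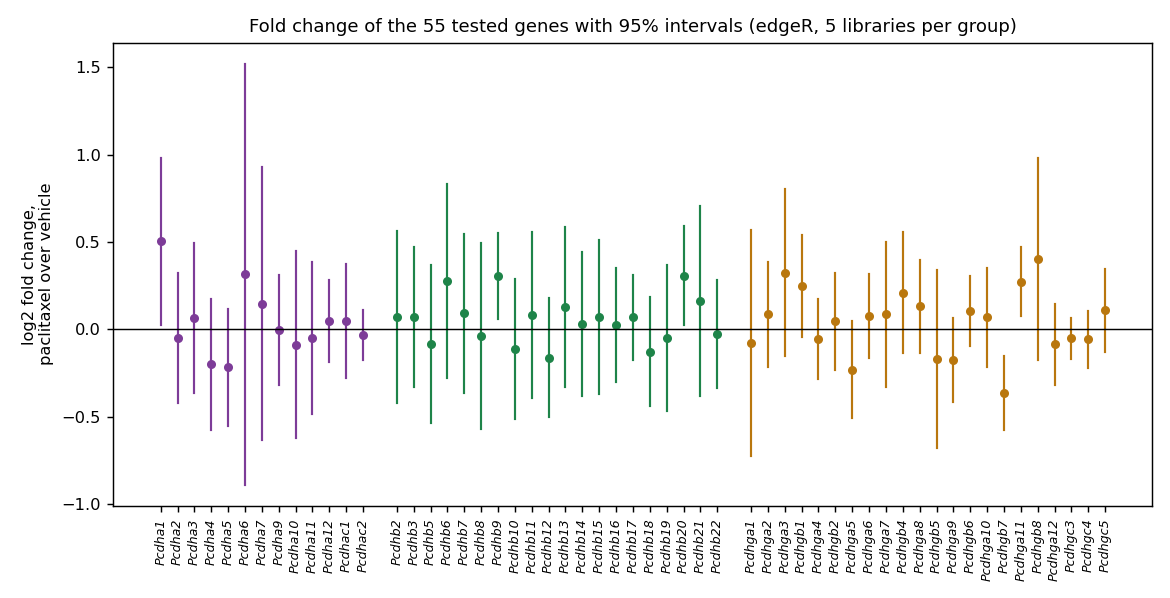
Log2 fold change, paclitaxel over vehicle, of the 55 tested genes in chromosomal order within each cluster, with 95% intervals from edgeR. Values run from -0.37 (Pcdhgb7) to 0.50 (Pcdha1), and the widest interval belongs to Pcdha6.

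Pcdhgc3, Pcdhac2 and Pcdhgc4, the C-type genes of highest level, had the smallest standard errors of the tested members. Pcdhgc3 was at 114, 118, 111, 122 and 109 CPM with paclitaxel and at 116, 117, 115, 123 and 123 CPM with vehicle. The groups overlapped, and the log2 fold change was -0.05 (SE 0.06, 95% interval -0.17 to 0.07). Pcdhgc4 was at 45.2, 43.6, 47.5, 42.3 and 53.8 CPM with paclitaxel and at 45.9, 51.7, 51.0, 45.4 and 48.4 CPM with vehicle, again overlapping, with a log2 fold change of -0.06 (SE 0.08), which was -0.12 without paclitaxel replicate 5 and -0.023 without paclitaxel replicate 4. Once corrected for GC content and length, Pcdhgc3 came to -0.0098 and Pcdhgc4 to -0.026. Pcdhgc3 was -0.03 without paclitaxel replicate 5. Pcdhac2 was at 81.3, 69.1, 82.1, 74.5 and 67.0 CPM with paclitaxel and at 76.6, 77.6, 79.9, 77.3 and 71.0 CPM with vehicle. Its log2 fold change was -0.03 (SE 0.07), and 0.0072 without paclitaxel replicate 5. Over these 3 genes the 95% intervals ran from 0.859 to 1.08 times the vehicle level. Pcdhgc5 had a value of 0.11 (SE 0.11), which ran from 0.03 without vehicle replicate 2 to 0.19 without vehicle replicate 4. Pcdhac1 had 0.05 (SE 0.16), and -0.11 without paclitaxel replicate 4.

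Among the γA and γB genes, Pcdhgb7 had the lowest p of all members and is known from earlier results of these data, so its values are a description. It was at 16.4, 22.2, 21.01, 16.4 and 17.98 CPM with paclitaxel and at 24.4, 24.8, 23.8, 23.4 and 25.2 CPM with vehicle. All 5 paclitaxel libraries lay below all 5 vehicle libraries, and the vehicle libraries were close together. The group means were 18.8 ± 2.68 and 24.3 ± 0.741 CPM (SD, n = 5 each), a log2 fold change of -0.37 (SE 0.10, 95% interval -0.58 to -0.15), which did not pass (edgeR unadjusted p = 0.00149, adjusted p = 0.792). It stayed between -0.43 and -0.32 when each library was left out.

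Its neighbour downstream, Pcdhga11, went the other way. It was at 32.6, 37.3, 32.7, 44.2 and 39.3 CPM with paclitaxel and at 35.6, 29.2, 31.9, 27.8 and 29.2 CPM with vehicle, where only vehicle replicate 1 reached into the paclitaxel range. The log2 fold change was 0.27 (SE 0.10; edgeR unadjusted p = 0.00895, adjusted p = 0.792). The 2 genes share their constant exons, so reads from these can be given to either of them or to other members, and the part of this in the opposite values was not tested. Pcdhgb1 was at 12.4, 13.9, 13.4, 13.1 and 12.8 CPM with paclitaxel and at 7.77, 9.78, 12.98, 13.5 and 11.7 CPM with vehicle, so that the vehicle libraries were the more spread. Its log2 fold change was 0.25 (SE 0.14), and 0.15 without vehicle replicate 1. Pcdhga5 was at 13.9 ± 3.05 and 16.1 ± 1.44 CPM (SD, n = 5 each) with a log2 fold change of -0.23 (SE 0.13), which was -0.15 without paclitaxel replicate 5 and -0.35 without paclitaxel replicate 1.

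Among the β genes, which the division of reads touches least, Pcdhb9 and Pcdhb20 were higher in value with paclitaxel. Pcdhb9 was at 14.1, 12.01, 12.3, 14.2 and 13.4 CPM with paclitaxel and at 10.7, 10.8, 10.8, 10.6 and 10.3 CPM with vehicle. The groups did not overlap, and within groups its variance was 0.189 times that of Poisson counting, the lowest of the tested members. The means were 13.2 ± 0.994 and 10.6 ± 0.227 CPM (SD, n = 5 each), a log2 fold change of 0.31 (SE 0.12; edgeR unadjusted p = 0.0167, adjusted p = 0.792). Pcdhb20 was at 11.02, 11.1, 10.6, 14.2 and 12.7 CPM with paclitaxel and at 9.40, 7.69, 10.3, 9.98 and 10.5 CPM with vehicle. Its groups also did not overlap, by a narrow margin between paclitaxel replicate 3 and vehicle replicate 5, and the log2 fold change was 0.31 (SE 0.14; edgeR unadjusted p = 0.0355, adjusted p = 0.792). With single libraries left out, Pcdhb20 ran from 0.24 without vehicle replicate 2 (edgeR unadjusted p = 0.100) to 0.35 without vehicle replicate 5 (edgeR unadjusted p = 0.0285). It was 0.26 once corrected for GC content and length (edgeR unadjusted p = 0.0712), and its unadjusted p in DESeq2 was 0.0671.

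The other β genes gave smaller or less certain values. Pcdhb6, at 2.73 ± 0.587 and 2.19 ± 0.692 CPM (SD, n = 5 each), had a fold change of 0.28 on the log2 scale (SE 0.27), and 0.53 without vehicle replicate 5. Pcdhb12 had one of -0.16 (SE 0.17), -0.08 without vehicle replicate 4 and -0.10 without paclitaxel replicate 3. Pcdhb17, the steady member of high level, was at 13.1, 12.6, 13.2, 13.6 and 11.6 CPM with paclitaxel and at 12.1, 12.6, 12.98, 11.9 and 11.4 CPM with vehicle, with a log2 fold change of 0.07 (SE 0.12). That value was 0.11 without paclitaxel replicate 5, 0.042 without vehicle replicate 5 and 0.016 once corrected for GC content and length. Over the whole family, the groups did not overlap in 3 of the 55 tested members (5.45%), where they did not overlap in 1.09% of all tested genes. Pcdhb9 and Pcdhb20 were the 2 that lay higher (0.467% of all tested genes) and Pcdhgb7 the 1 that lay lower (0.625%).

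Among Pcdha1 to Pcdha12, Pcdha1 was the only member at an unadjusted p under 0.05 with all 10 libraries in the fit. Without paclitaxel replicate 4, Pcdha6 and Pcdha4 were under 0.05 and Pcdha1 was not (edgeR unadjusted p = 0.0649). Pcdha1 was at 4.45, 4.99, 4.67, 6.28 and 8.99 CPM with paclitaxel and at 5.06, 5.76, 3.30, 2.82 and 3.72 CPM with vehicle. The groups overlapped, and paclitaxel replicate 5 was the highest library. The log2 fold change was 0.50 (SE 0.23; edgeR unadjusted p = 0.0397, adjusted p = 0.792), and 0.28 without that library. Pcdha5 had a log2 fold change of -0.22 (SE 0.16), which was -0.14 without paclitaxel replicate 5. Pcdha4 had one of -0.20 (SE 0.18), which ran from -0.37 without paclitaxel replicate 4 to -0.09 without paclitaxel replicate 2. Pcdha6 had a log2 fold change of 0.32 with an SE of 0.53. It was 0.59 without paclitaxel replicate 4, the library listed at 0 (edgeR unadjusted p = 0.00834), 0.16 without vehicle replicate 3, and -0.39 in limma-voom with all libraries. Pcdha12, highest of these genes, was at 16.6 ± 1.18 and 16.1 ± 2.11 CPM (SD, n = 5 each) with a log2 fold change of 0.05 (SE 0.11), and -0.0043 without vehicle replicate 3.

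Genes that act with the clusters did not change by the test either. The promoter choice list held 22 genes for the insulator protein CTCF, the cohesin ring that brings promoter and enhancer together, its loaders, and the DNA methylation and silencing factors that keep promoters off. Of its 21 tested genes 0 passed and 13 were higher and 8 lower in value, with a median log2 fold change of 0.0198 beside -0.0027 over all genes. Paclitaxel libraries had 60.2 ± 4.04 and vehicle libraries 58.8 ± 4.56 CPM of Ctcf (SD, n = 5 each), a log2 fold change of 0.03 (SE 0.07). The cohesin subunit genes Stag1 and Stag2 came to 0.20 (SE 0.09) and 0.15 (SE 0.07), and to 0.13 and 0.04 once corrected for GC content and length. The methyltransferase gene Dnmt3b, which is needed for methylation of these promoters in development, was at 0.574 ± 0.264 and 0.708 ± 0.448 CPM (SD, n = 5 each) and was not tested.

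The list of signalling, cleavage and trafficking partners held 19 genes, among them the kinases Ptk2 and Ptk2b (FAK and PYK2), which the constant domains inhibit, and the WAVE complex that drives actin branching. Of the 19, 0 passed, 12 were higher and 7 lower in value, with a median of 0.0164. Lowest p belonged to the kinase gene Prkca (log2 fold change 0.16, SE 0.06) and the WAVE complex genes Abi2 (0.15, SE 0.06) and Abi1 (0.12, SE 0.07), and Abi1 came to 0.04, and Abi2 to 0.09, once corrected for GC content and length. Without paclitaxel replicate 3 they came to 0.065 and 0.097. Ptk2 was at 62.1 ± 2.73 and 61.4 ± 1.87 CPM (SD, n = 5 each).

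Non-clustered protocadherins, which are single genes outside the clusters with adhesion roles of their own, were read as the nearest relatives. Of 12 genes 11 were tested, 0 passed, and 8 were higher and 3 lower in value with a median log2 fold change of 0.04. Pcdh18 had the lowest p, with 10.5 ± 1.40 CPM in paclitaxel and 8.03 ± 1.77 CPM in vehicle libraries (SD, n = 5 each), a log2 fold change of 0.40 (SE 0.16). Pcdh19 (0.10, SE 0.08) followed, with 0.046 without vehicle replicate 5, and then Pcdh10 (-0.07, SE 0.06), with -0.035 without paclitaxel replicate 5.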

How the data were processed

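Per the labels' protocols, RNA from lumbar cord was purified on columns and mRNA libraries were read on an Illumina machine. The single deposited table has expected counts per gene, estimated by the authors with RSEM after STAR on build mm10, per the submitters' processing notes, which also name edgeR 4.2.0. The sources used here give no read length, strand setting or annotation release. Each member is listed with 1 RefSeq transcript. Values were rounded before testing (5.04% had a fraction).

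Genes were filtered with filterByExpr (minimum count 10, minimum total 15) in edgeR 4.0.16 (R 4.3.3), scaled with TMM factors and tested with the quasi-likelihood F test with robust dispersions, without covariates, all 10 libraries in 1 fit. P-values were two-sided and adjusted over all 13287 tested genes by the Benjamini-Hochberg method. The test was tried on simulated data with known changes. CPM uses TMM-scaled sizes. Standard errors come from the fold change and F. Library pairs within a group differed beyond sampling noise (chi-square 1.61 to 6.89 for each degree of freedom), so no library was a copy of another. The paclitaxel pairs with replicate 3 were at 5.00 to 6.89 and the other paclitaxel pairs at 1.61 to 3.05. This check cannot tell whether each library is a different animal, and each was treated as a replicate.

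Transcript lengths, exons and GC content came from GENCODE M21, matched by RefSeq accession, and for single-exon members the length was the RefSeq span. Coordinates are RefSeq's on GRCm38.p6. The variance ratio is the sum over libraries of squared deviation over expected counts, per degree of freedom. Named members were, in each cluster, the 4 of lowest p and the 2 of highest level per kilobase, then the 5 C-type genes and Pcdhgb7. Of the other lists, up to 3 genes of lowest p were named, and 1 such gene is not reported here. Ctcf, Dnmt3b, Ptk2, Pcdha7, Pcdha7-g, Pcdha8, Pcdhb1, Pcdhb4, Pcdhga1, Pcdhga7, Pcdhgb6 and Pcdhgb8 were named after their values were seen, as were members with a library set apart. Wapl is listed as Wapal. Members and lists were chosen with earlier results of these data known. Alternatives were other scalings and filters, DESeq2 1.42.0, limma-voom (limma 3.58.1), the replicate number as a block, a loess correction for GC content and length (available for 99.7% of tested genes), and leaving libraries out. Adding Pcdha7-g to the Pcdha sum was chosen after seeing the data.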

Additional observations from a re-analysis of the deposited data

Results flagged for a closer look

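Of 122 sets of 5 libraries examined (58 genes and 3 cluster sums in each group), 10 had a library lying apart from the other 4 by Dixon's criterion, where chance gives about 6. Paclitaxel replicate 4 accounted for 3 of them, with Pcdha6 at 0 CPM (others 9.73 to 11.7), Pcdhac1 at 18.8 CPM (others 9.76 to 11.95) and Pcdhgc5 at 28.1 CPM (others 23.1 to 23.8). Paclitaxel replicate 1 was apart in Pcdhb14, at 11.95 CPM (others 5.73 to 7.39), and in the Pcdhb sum, at 149 CPM (others 125 to 131). Paclitaxel replicate 2 was apart in Pcdhb2 at 1.85 CPM (others 3.49 to 4.09), and paclitaxel replicate 5 in Pcdhgb2 at 13.03 CPM (others 16.6 to 17.6). Among vehicle libraries, replicate 2 was apart in Pcdha4 at 7.34 CPM (others 11.9 to 12.5) and replicate 5 in Pcdhga1 at 9.74 CPM (others 5.59 to 6.29). Vehicle replicate 3 was apart in Pcdhb1 at 0.22 CPM, which is 1 count, with the others at 0.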

How the results depend on the processing

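No clustered protocadherin passed an adjusted p of 0.05 in edgeR under any scaling, filter, block, GC and length correction or left-out library, nor in DESeq2 or limma-voom. Over all genes the count was 0, and 1 in DESeq2 and 1 with the replicate number as a block. Whether the replicate numbers pair the samples cannot be told from these values. Same-numbered libraries had correlations of their deviations from the group means between -0.10 and 0.14. Replicates 2 and 5 of each group correlated best with their own number. The block left 0 members called, with 6 at an unadjusted p under 0.05 in place of 5. The sums and medians of the 3 clusters moved by less than the spread between libraries under each alternative run on them. The Pcdha median was 0.001 with DESeq2 size factors and 0.0017 with upper-quartile scaling, against -0.0038, so its sign depended on the scaling. With Pcdha7-g in the sum the Pcdha ratio was 0.00094 on the log2 scale, against -0.0075. The log2 fold change of Pcdha6 was -0.39 in limma-voom, against 0.32, and ran from 0.16 to 0.59 with single libraries left out. Likewise Pcdhac2 ran from -0.067 to 0.0072, Pcdha12 from -0.0043 to 0.11 and Pcdhac1 from -0.11 to 0.14. The depth limits the low members most, since 3 counts stand for up to 0.819 CPM in a library.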
